A study of Mus musculus with 96 samples.

Results

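Follistatin (Fst), T-cadherin (Cdh13), Lypd2, Upk3a, prostate stem cell antigen (Psca) and Igfbp2 are 6 genes picked from a table of 54532 mouse genes by their transcript levels in thin limb segments of the kidney's loop of Henle. Each symbol was found on 1 row, and 6 of 6 passed the filter on low values, which asked for at least 1 TPM in at least 3 mice. TPM is a transcript abundance per length, scaled by the authors to the same total in every sample, so that levels can be set side by side between genes of a sample, while comparisons between samples also depend on the scaling. The thin limb levels chose these genes, so those levels are described without a test, and tests are kept for groups outside the thin limbs and for other genes.

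The loop of Henle carries tubular fluid from the cortex down into the medulla and back, and its thin limbs are the flat, hairpin-shaped part of it. The descending thin limb is known for its water permeability, and the ascending thin limb for passing chloride while holding back water, which helps to concentrate the urine. The 6 genes code for proteins that are secreted or sit on the cell surface. Follistatin is a secreted protein that binds and neutralises activins, and Igfbp2 is a secreted binding protein of the insulin-like growth factors. Psca and Lypd2 belong to the LY6/uPAR family of small, cysteine-rich proteins held in the outer membrane by a lipid anchor. T-cadherin is a cadherin with a lipid anchor in place of a membrane-spanning part and is known as a receptor of adiponectin, and Upk3a codes for a uroplakin, one of the membrane proteins that pave the surface of the bladder epithelium.

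Psca and Lypd2 lie near each other in the genome, so the start of the coding sequence of each is shown to let the family's cysteine pattern be seen. The sequences were taken from the GENCODE M21 transcripts, are printed 5′ to 3′ over the first 300 bases of 369 and 381 coding bases, and have the in-frame codons for cysteine in capitals.
Psca: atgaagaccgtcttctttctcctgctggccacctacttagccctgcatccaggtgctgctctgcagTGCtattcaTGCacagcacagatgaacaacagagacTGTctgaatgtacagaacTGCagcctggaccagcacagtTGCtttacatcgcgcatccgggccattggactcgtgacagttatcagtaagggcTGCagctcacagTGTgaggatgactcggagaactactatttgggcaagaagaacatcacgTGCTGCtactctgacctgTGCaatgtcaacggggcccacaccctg
Lypd2: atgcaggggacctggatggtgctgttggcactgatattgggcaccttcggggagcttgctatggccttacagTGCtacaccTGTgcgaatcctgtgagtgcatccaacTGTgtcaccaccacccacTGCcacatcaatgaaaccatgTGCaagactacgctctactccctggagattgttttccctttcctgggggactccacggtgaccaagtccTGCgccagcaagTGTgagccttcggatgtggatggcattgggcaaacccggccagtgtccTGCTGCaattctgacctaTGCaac
Each stretch held 10 cysteine codons, and the full coding sequences held 11 in Psca and 10 in Lypd2. The longest exact run shared by the transcripts of the 2 genes was 10 bases, and the longest shared by Psca and the neighbouring family member Slurp1 was 12 bases. No stretch of 50 bases of Psca, Lypd2, Upk3a or Igfbp2 was found on either strand of a transcript of another gene (0 of 811, 630, 1044 and 1791 stretches), while 1.4% of those of Fst and 0.205% of those of Cdh13 were.

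RNA was sequenced from hand-dissected pieces of kidney of male C57BL/6 mice aged 6 to 8 weeks, with no treatment or genetic change named in the labels. The thin limbs were sampled as the descending limb of short loops (DTL1, 3 mice and 4 samples), the descending limb of long loops in the outer medulla (DTL2, 3 mice and 7 samples) and in the inner medulla (DTL3, 3 mice and 4 samples), and the ascending limb (ATL, 4 mice and 4 samples). The 11 other groups were the glomerulus (3 mice), the proximal tubule's first convoluted part (PTS1, 3 mice), its straight part in the cortex (PTS2, 5 mice) and in the outer stripe (PTS3, 3 mice), the thick ascending limb of the medulla (MTAL, 3 mice) and of the cortex (CTAL, 5 mice), the distal convoluted tubule (DCT, 3 mice), the connecting tubule (CNT, 3 mice), and the collecting duct, cut in its cortical (CCD, 5 mice), outer medullary (OMCD, 4 mice) and inner medullary stretch (IMCD, 3 mice). The glomerulus samples carry the same preparation label as the tubules, but their TPM are written in steps of 0.1, where those of the tubules have steps of 0.01. Pieces with 1 mouse number and 1 segment were averaged first, so that 93 samples gave 53 mice, and a value below is a mean ± SD over mice.

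The libraries differed in how many genes they listed at 1 TPM or more, from 11291 to 14099 in samples of 8 of the groups, 12850 to 17486 in IMCD, 16644 to 20672 in OMCD and 17220 to 29603 in the glomerulus, DTL1, DTL2 and DTL3. The 4 ATL mice fell at 13949, 13532, 23465 and 24647 genes (mice 2, 3, 4 and 6). TPM keep no number of reads, so depth is unknown and no counting interval is given. A list of 8 thin limb transcripts summed to between 9846 and 27409 TPM in the 13 thin limb mice, and Aqp1, the water channel of descending limbs, stood at 6582 ± 465 TPM in DTL2 and 11647 ± 467 TPM in DTL3 but at 97.4 ± 113 TPM in DTL1 and 0.43 ± 0.46 TPM in ATL. Another transcript of the list, the urea transporter Slc14a2, stood at 7555 ± 3075 TPM in DTL1, where Aqp1 was low. The list is not limited to thin limbs, since it also summed to between 10721 and 26087 TPM in IMCD. Among the thin limbs, endothelial transcripts (6 genes) were lowest in ATL, where they summed to 152 to 241 TPM, against 644 to 1622 TPM in DTL3, 1045 to 1919 TPM in DTL2, and 2832 to 3748 TPM in DTL1.

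The 6 genes did not mark the thin limbs as a whole. Fst and Cdh13 were highest in DTL2, Upk3a in DTL3, Psca and Igfbp2 in ATL, and Lypd2 in both DTL2 and ATL, and 0 of the 6 had its highest level in DTL1. Together they made up 2.26% of all TPM in ATL and 0.816% in DTL2, but 0.0119% in DTL3 and 0.00378% in DTL1. In bulk samples such as these, fewer cells of a type and less RNA per cell cannot be told apart.

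**Figure D1:**
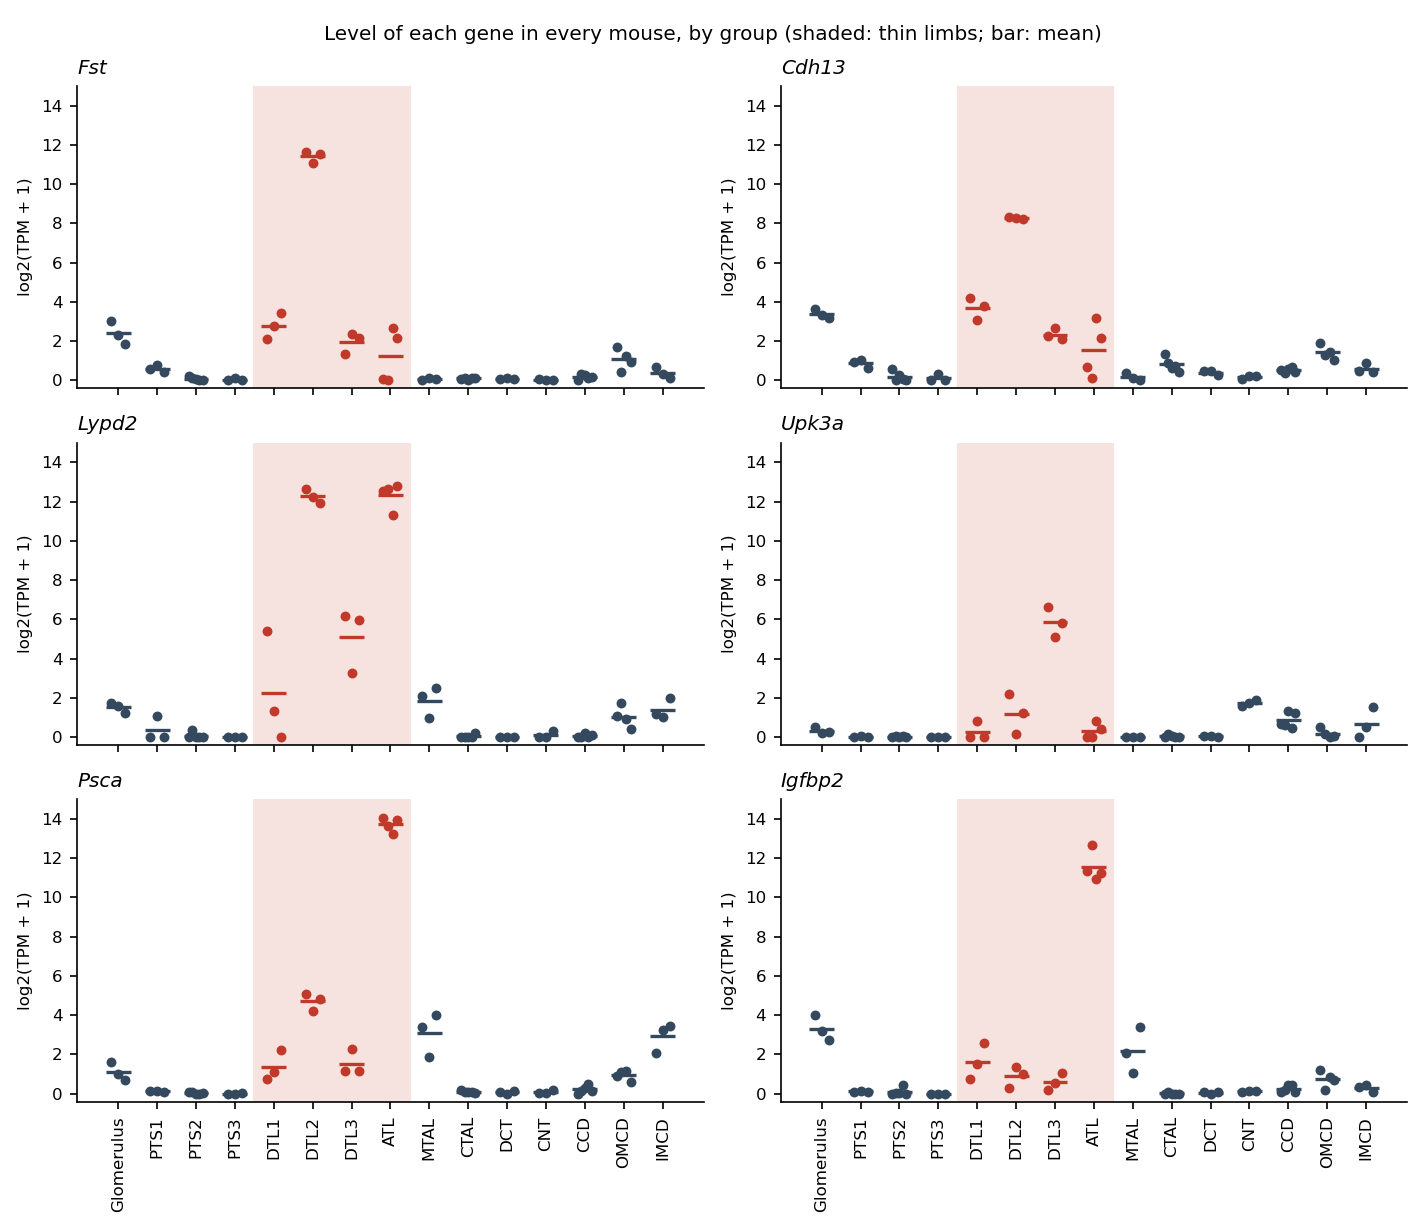
Level of the 6 genes in every mouse (points, log2 of TPM + 1) for 15 groups in nephron order, with the group mean of the plotted points as a bar and the 4 thin limb groups shaded in red. Fst and Cdh13 stand out in DTL2, Lypd2 in DTL2 and ATL, Upk3a in DTL3, and Psca and Igfbp2 in ATL, and DTL1 is the highest group for none of the 6.

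Among the secreted binding proteins, Fst (ENSMUSG00000021765) was a DTL2 transcript. The 3 DTL2 mice stood at 3241, 2133 and 2985 TPM, a mean of 2786 ± 580 TPM (n = 3), which placed Fst at rank 30 of all genes in that segment. The lowest DTL2 mouse was far above the highest mouse of any other group, which was a DTL1 mouse at 9.91 TPM. The 7 single pieces of DTL2 held between 1708 and 3271 TPM, and the largest ratio between pieces of 1 mouse was 1.5, close to the ratio of 1.52 between the highest and the lowest mouse. On the log2(TPM + 1) scale DTL2 lay 8.63 above the next group, DTL1.

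Below DTL2 the levels of Fst formed a low tail without clear steps. They were 6.4 ± 3.3 TPM in DTL1 (n = 3), 4.63 ± 2.38 TPM in the glomerulus (n = 3), 3.11 ± 1.36 TPM in DTL3 (n = 3), 2.22 ± 2.66 TPM in ATL (n = 4) and 1.21 ± 0.78 TPM in OMCD (n = 4), and under 1 TPM in the 9 other groups. Within ATL the 4 mice were split, at 0.05 and 0 TPM in mice 2 and 3 against 5.4 and 3.43 TPM in mice 4 and 6, the mice whose libraries listed the most genes. The mouse ranges of neighbouring groups in this order overlapped in 13 of 14 pairs, the step below DTL2 being the exception. With DTL2, the 5 groups of the tail are also those with the highest median number of genes listed per library, and the part of that in these low values was not tested.

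Igfbp2 (ENSMUSG00000039323) was an ATL transcript, with a wide spread between mice. The 4 ATL mice stood at 2608, 6468, 1979 and 2443 TPM (mice 2, 3, 4 and 6), a mean of 3375 ± 2079 TPM, rank 17 of all genes in ATL. Mouse 3 was more than double any other mouse, and without it the mean was 2344 TPM. Outside ATL the highest level was in the glomerulus at 9.68 ± 4.92 TPM (n = 3), so that ATL was 349 times higher on the linear scale and 8.31 higher on the log2 scale. MTAL followed at 4.63 ± 4.38 TPM, and 11 of the 15 groups had a mean under 1 TPM. The descending limbs were low, with 2.49 ± 2.22 TPM in DTL1, 0.93 ± 0.68 TPM in DTL2 and 0.56 ± 0.46 TPM in DTL3 (n = 3 each), and their mice overlapped.

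Among the surface proteins, Lypd2 (ENSMUSG00000022595) was the one shared by a descending and an ascending limb. It stood at 5034 ± 1279 TPM in DTL2 (6440, 4724 and 3939 TPM in mice 1, 2 and 3) and 5494 ± 2003 TPM in ATL (6035, 6414, 2546 and 6980 TPM in mice 2, 3, 4 and 6). The ranges of the 2 groups overlapped, and the difference of 0.09 on the log2 scale changed sign to -0.06 without ATL mouse 6. In DTL2 the pieces of 1 mouse differed by up to 1.96 times, more than the 1.63 times between mice.

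Between the 2 high segments in the course of the long loop lies DTL3, where Lypd2 was 46.8 ± 33.4 TPM (69.8, 8.51 and 62.1 TPM in mice 1, 2 and 3). The 3 DTL3 mice were below every DTL2 and ATL mouse, and ATL exceeded DTL3 by 7.23 on the log2 scale. DTL1 averaged 14.2 ± 23.3 TPM, which rested on mouse 1 at 41.1 TPM beside 1.54 and 0 TPM in mice 3 and 5. Outside the thin limbs the highest group was MTAL at 2.94 ± 1.83 TPM (n = 3), and Lypd2 was listed at 0 in every sample of PTS3 and DCT.

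Psca (ENSMUSG00000022598) had the highest level of the 6. The ATL mice held 16933, 12848, 9765 and 15484 TPM (mice 2, 3, 4 and 6), a mean of 13757 ± 3153 TPM, which was 1.38% of all TPM and rank 3 of all genes in ATL. DTL2 followed at 26.2 ± 7.82 TPM (33.3, 17.8 and 27.4 TPM in mice 1, 2 and 3), 9.16 lower on the log2 scale, with no overlap between the groups. In the same DTL2 mice Igfbp2, the other gene highest in ATL alone, was 0.22 to 1.56 TPM. MTAL held 9.07 ± 6.18 TPM and IMCD 7.16 ± 3.45 TPM (n = 3 each), whose mice overlapped, and DTL3 and DTL1 held 2.1 ± 1.52 and 1.87 ± 1.65 TPM.

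Psca and Lypd2 stood at comparable levels in ATL but not in DTL2. In ATL the ratio of Psca to Lypd2 was 2 to 3.84 over the 4 mice (median 2.51), and in DTL2 the ratio of Lypd2 to Psca was 144 to 265 over the 3 mice (median 193). Both ratios kept their side in every mouse of the group. The ATL mouse 4 was lowest for Psca, Lypd2 and Igfbp2 alike, and its library was one of the 2 with many genes listed.

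Cdh13 (ENSMUSG00000031841) shared its peak with Fst and was the least variable of the 6 there. The DTL2 mice stood at 323, 313 and 294 TPM, a mean of 310 ± 14.7 TPM (n = 3), a coefficient of variation of 4.75%, although pieces of 1 mouse differed by up to 1.3 times. DTL1 followed at 12.5 ± 4.77 TPM, the glomerulus at 9.55 ± 1.83 TPM and DTL3 at 4.12 ± 1.03 TPM, and the lowest DTL2 mouse was above the highest of these, 17.1 TPM. In DTL2 the ratio of Fst to Cdh13 was 6.81 to 10.1 over the mice. T-cadherin is also known from vascular endothelium. The summed endothelial transcripts were 1045 to 1919 TPM in the DTL2 mice, 2832 to 3748 TPM in the DTL1 mice and 3130 to 3215 TPM in the glomerulus mice. The endothelial cadherin Cdh5 was 5.55 ± 0.57 TPM in DTL2, 13.2 ± 6.35 TPM in DTL1 and 34.6 ± 7.33 TPM in the glomerulus. Of the 6 endothelial genes only Kdr was higher in DTL2 than in DTL1, at 39.2 ± 14.3 against 21.1 ± 6.82 TPM. In the glomerulus Kdr was 639 ± 105 TPM. The part of endothelial RNA in the levels of Cdh13 was not tested.

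Upk3a (ENSMUSG00000022435) was the weakest of the 6. The DTL3 mice stood at 97.1, 33.4 and 55.8 TPM, a mean of 62.1 ± 32.3 TPM (n = 3), rank 3321 of all genes in DTL3. The next group by mean was CNT at 2.34 ± 0.31 TPM (2.03, 2.35 and 2.65 TPM), 4.14 lower on the log2 scale, and DTL2 followed at 1.68 ± 1.77 TPM with 4 of its 7 pieces at 0. In 12 of 15 groups the mean was under 1 TPM, and every sample of PTS3 and MTAL was listed at 0. Of 7 urothelial transcripts, 6 averaged under 1 TPM in DTL3, among them Upk1a at 0.28 ± 0.13 TPM, Upk1b at 0.16 ± 0.23 TPM, Upk2 at 0.3 ± 0.27 TPM and Krt5 at 0 in all 3 mice. The exception was Trp63, a transcription factor of basal epithelial cells, at 24.9 ± 2.98 TPM.

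The pattern of Fst was most like that of Cdh13, and those of Lypd2 and Psca were most like those of chromosomal neighbours, while the closest genes to Igfbp2 and Upk3a were other genes. Likeness was Pearson's r of the 15 group means of log2(TPM + 1), across 12077 genes whose highest group mean was at least 10 TPM, and the points share libraries. Fst and Cdh13 were each other's closest genes (r = 0.97), but both were picked for thin limb levels, which also enter r. The next closest to Fst was Synpo2l (r = 0.96, 18.6 ± 6.91 TPM in DTL2) and then CAAA01064564.1, whose SD exceeded its mean (13.4 ± 23.2 TPM). Cdh13 was followed by Atp10a and Rgs9 (r = 0.94 and 0.93), both highest in DTL2 at 14.4 ± 3.02 and 26 ± 11 TPM.

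Lypd2 was closest to Them6 and Slurp1 (both r = 0.94) and Slc7a15 (r = 0.85), and Psca to Slurp1, Mst1 and Cfap206 (r = 0.95, 0.94 and 0.93). Igfbp2 was closest to Pirt, Cd163l1 and Prok2 (all r = 0.97), all 3 highest in ATL, at 35.7 ± 25.3, 123 ± 57.4 and 70.5 ± 24.8 TPM. The 3 genes closest to Upk3a, n-R5s195, Mir16-1 and Mir673, are short RNA genes with SDs above their means in DTL3. Among protein-coding genes alone, a restriction added after those were seen, the closest were Nr2e3 (r = 0.9), Wnt8b (r = 0.86) and Raet1e (r = 0.86), highest in DTL3 at 770 ± 353, 39.1 ± 5.13 and 17.2 ± 7.76 TPM.

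Psca and Lypd2 lie on mouse chromosome 15 in a run of family members, and the genes between them were also highest in ATL. In the RefSeq annotation of GRCm38.p6 the protein-coding genes follow in the order Arc, Jrk, Psca, Them6, Slurp1, Lypd2, Slurp2, Lynx1 and Ly6d. Slurp1 and Slurp2 code for secreted proteins and Lynx1 for an anchored protein of the LY6/uPAR family that are known to act at acetylcholine receptors. From Psca to Lynx1, all 6 genes had their highest mean in ATL and their next highest in DTL2. Psca and Lypd2 among them were picked for thin limb levels, and the share of all genes with this order was not computed. The ATL and DTL2 mice overlapped for Them6, Lypd2, Slurp2 and Lynx1, but not for Psca and Slurp1. Without ATL mouse 6 the ATL mean of Lypd2 was 4998 TPM, below its 5034 TPM in DTL2. Arc had its highest mean in DTL3 through 1 mouse, at 54.7, 1030 and 27.1 TPM in mice 1, 2 and 3, where the 4 ATL mice held 40.7 to 77.3 TPM. Jrk was 11.4 ± 1.36 TPM in DTL3 and 11.3 ± 7.94 TPM in ATL, with overlapping mice. On the other side, Ly6d was highest in the glomerulus at 6.57 ± 1.57 TPM and listed at 0 in ATL and DTL2. Them6, Arc and Jrk were chosen for this description after their values were seen.

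In ATL the neighbours were much lower than Psca and Lypd2 in TPM, but in DTL2 Psca, at 26.2 ± 7.82 TPM, was below Lynx1 and Them6. Slurp1 stood at 103 ± 45.6 TPM in ATL and 10.9 ± 1.7 TPM in DTL2, and its highest group elsewhere was DTL3 at 2.25 ± 1.99 TPM. Slurp2 stood at 9.51 ± 6.43 TPM in ATL and 3.65 ± 3.28 TPM in DTL2 (with a pseudocount of 5 its DTL2 difference of 0.68 was under the threshold), Lynx1 at 199 ± 57 and 174 ± 51.3 TPM, and Them6 at 72.4 ± 40.4 and 29.3 ± 10.9 TPM. Outside the thin limbs Lynx1 reached 42.5 ± 11.3 TPM in MTAL, and Them6 held 0.69 to 5.92 TPM in the 11 group means. Against the mean of the 11 groups outside the thin limbs, by limma on log2(TPM + 1), Slurp1 was 6.5 higher in ATL (SE 0.21, adjusted p = 4.07e-28) and 3.44 higher in DTL2 (SE 0.24, adjusted p = 8.33e-16). Lynx1 was 4.67 higher in ATL and 4.46 higher in DTL2 (SE 0.15 and 0.17, adjusted p = 2.06e-28 and 4.49e-25). Them6 and Slurp1 share 273 stretches of 50 bases on opposite strands, 15.7% of those of Them6 and 9.31% of those of Slurp1. No strand is stated for the counting, so reads from that overlap cannot be assigned to one of them.

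**Figure D2:**
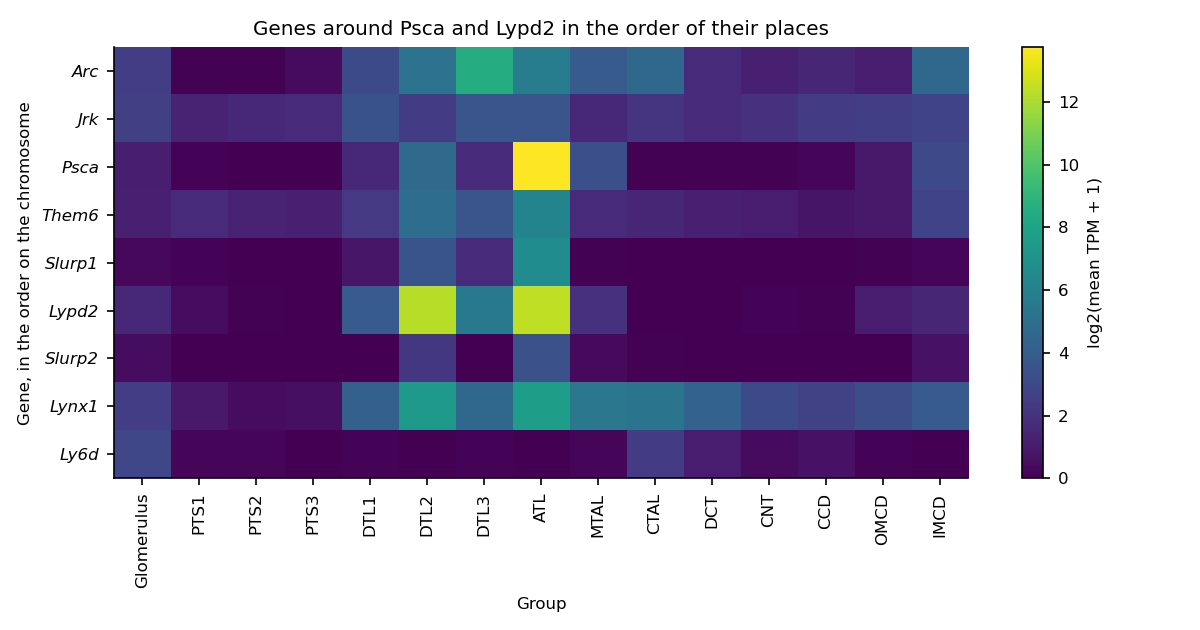
Mean level of 9 neighbouring protein-coding genes of mouse chromosome 15 (rows, in chromosomal order) in 15 groups (columns), coloured by log2 of mean TPM + 1. The 6 genes from Psca to Lynx1 are brightest in ATL and next in DTL2, with Psca at 13757 TPM and Lypd2 at 5494 TPM in ATL. Psca and Lypd2 were picked for thin limb levels. The DTL3 colour of Arc rests on 1 mouse at 1030 TPM, and Ly6d is dark in both ATL and DTL2.

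Outside the thin limbs the 6 genes were compared between the groups that follow each other along the nephron, in 9 contrasts that hold no thin limb. Their SE and p-values still rest on a spread per gene estimated over all 15 groups, thin limbs included. Leaving out a thin limb mouse can therefore change a call between other groups. These contrasts ask where the low levels of the genes rise or fall, and were tested by limma over 33793 genes at an adjusted p under 0.05 and a log2 difference of at least 1. Of 54 values, 7 were called, where the share of all genes called ran from 1.12% to 51.9% over the contrasts. Between the glomerulus and PTS1, 3 of the 6 were called higher in the glomerulus, where 51.9% of all genes tested were called in either direction. Cdh13 was 9.55 ± 1.83 TPM against 0.84 ± 0.27 TPM (log2 difference 2.52, SE 0.38, adjusted p = 1.56e-07), Igfbp2 9.68 ± 4.92 TPM against 0.085 ± 0.018 TPM (3.13, SE 0.39, adjusted p = 2.33e-09) and Fst 4.63 ± 2.38 TPM against 0.53 ± 0.18 TPM (1.72, SE 0.39, adjusted p = 0.000204). For all 3, each glomerulus mouse was above each PTS1 mouse, and the share of all genes for which this holds was not computed. The median difference of all genes was 0.96 in this contrast and fell to 0.03 with quantile normalization. The difference of Fst was then 0.35 and no longer called (adjusted p = 0.376), and with a pseudocount of 5 it was 0.74, under the threshold.

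Between the thick ascending limb of the medulla and that of the cortex, 2 of the 6 genes were called higher in MTAL, against 3.15% of all genes in either direction. Psca stood at 9.62, 2.64 and 15 TPM in the MTAL mice 1, 2 and 3 and at 0.03 to 0.14 TPM in the 5 CTAL mice (log2 difference 2.90, SE 0.30, adjusted p = 1e-09). Igfbp2 stood at 3.24, 1.12 and 9.54 TPM against 0 to 0.05 TPM (2.04, SE 0.35, adjusted p = 4.28e-05), and with a pseudocount of 5 its difference of 0.82 was under the threshold. Lypd2 was 2.94 ± 1.83 TPM in MTAL and 0.029 ± 0.065 TPM in CTAL, a difference of 1.69 that missed the call (adjusted p = 0.0718). It met the call with either other scaling, with a pseudocount of 0.1, with a filter at 5 TPM, with pieces averaged before the log, and without DTL1 mouse 1, DTL1 mouse 5 or DTL3 mouse 2. The MTAL mice were above the CTAL mice without overlap for all 3 genes, and the share of all genes without overlap there was not computed. Fst, Cdh13 and Upk3a were at most 0.31 TPM in every MTAL mouse.

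In MTAL the 3 ATL genes moved together from piece to piece. The pieces 1b, 3a and 3b held 15.7, 16.5 and 13.4 TPM of Psca, 5.96, 7.71 and 11.4 TPM of Igfbp2 and 5.9, 4.44 and 4.77 TPM of Lypd2. The other 3 pieces (1a, 2a and 2b) held 2.55 to 3.55 TPM of Psca, 0.51 to 1.3 TPM of Igfbp2 and 0.55 to 1.19 TPM of Lypd2, so that each gene's groups of pieces did not overlap. Sptssb, a thin limb transcript at 3846 ± 1211 TPM in ATL, was highest in 2 of these 3 pieces, at 2.3 and 3.96 TPM in 3a and 3b, against 1.11 TPM in 1b and 0.53 to 1.37 TPM in the other 3. In all 6 pieces Slurp1 was at most 0.27 TPM and Upk3b, another ATL transcript, was 0.23 to 0.86 TPM. The part of neighbouring thin limb RNA in these levels was not tested.

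Psca was also called between OMCD and IMCD, the single member called there, against 18.6% of all genes in either direction. It was lower in OMCD, at 0.9, 1.15, 1.2 and 0.52 TPM in the 4 mice, than in IMCD, at 3.27, 8.33 and 9.88 TPM in the 3 mice (log2 difference -1.38, SE 0.32, adjusted p = 0.000561). The groups did not overlap, but within IMCD 2 of 9 pieces carried most of it: piece 2b at 24.1 TPM and piece 3a at 22.6 TPM, where the other 7 held 0.16 to 4.44 TPM. The same 2 pieces were the highest for Lypd2, at 2.98 and 8.54 TPM, and for Sptssb, at 3.97 and 8.7 TPM, but held 0 and 0.08 TPM of Igfbp2. With a pseudocount of 5 the difference of Psca was -0.75, under the threshold.

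**Figure D3:**
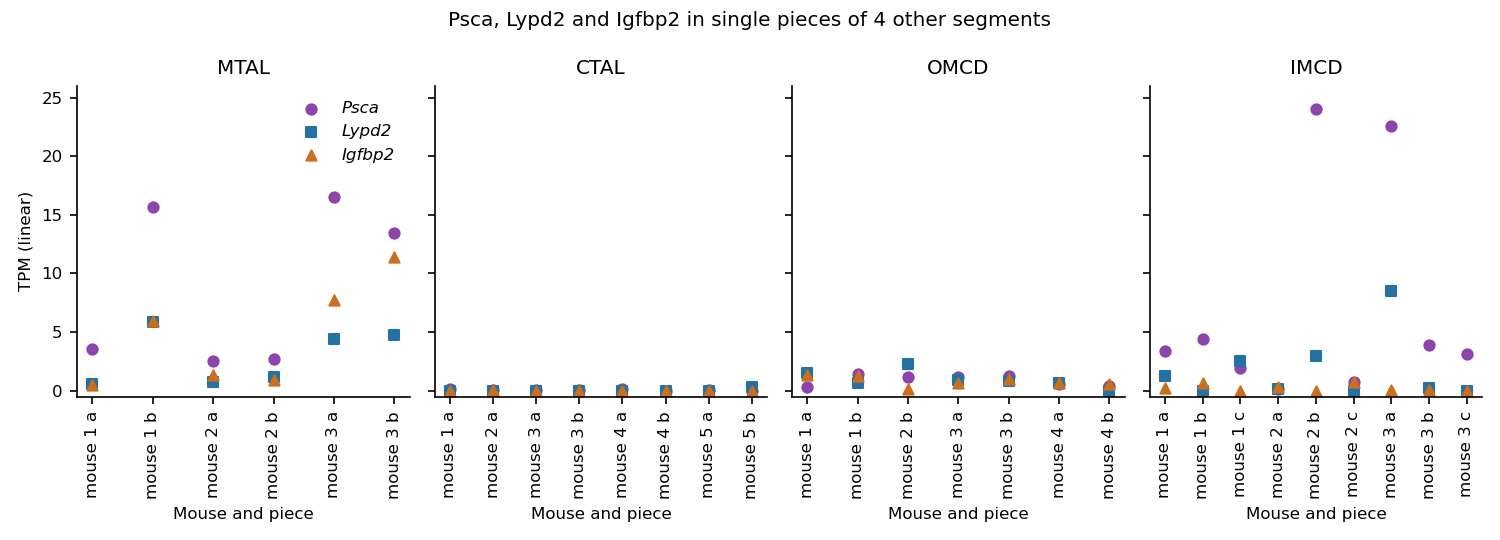
TPM (linear axis) of Psca, Lypd2 and Igfbp2 in single dissected pieces of MTAL, CTAL, OMCD and IMCD, 1 column of points per piece. In MTAL the 3 genes are high in the same 3 pieces, in IMCD Psca reaches 24.1 and 22.6 TPM in 2 pieces with Igfbp2 near 0, and in CTAL all 3 are near 0.

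Upk3a was called lower in DCT than in CNT, the single member called between them, where 5.22% of all genes were called in either direction. The DCT mice held 0 to 0.045 TPM and the CNT mice 2.03 to 2.65 TPM (log2 difference -1.68, SE 0.29, adjusted p = 3.24e-05), without overlap. All 6 CNT pieces were above 1 TPM, from 1.15 to 2.9 TPM. With a pseudocount of 5 the difference was -0.54 and not called. Further along, Upk3a was 0.86 ± 0.53 TPM in CCD (n = 5), which did not pass the test against CNT (log2 difference 0.87, SE 0.26, adjusted p = 0.0882).

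In the remaining contrasts 0 of the 6 genes were called by limma. The background was 9.57% of all genes between PTS1 and PTS2, 4.7% between PTS2 and PTS3, 4.35% between CTAL and DCT, 1.12% between CNT and CCD and 12.1% between CCD and OMCD. At an unadjusted p under 0.05 the counts of the 6 were 0, 0, 0, 1 and 4. The 4 between CCD and OMCD were Fst, Cdh13 and Psca, higher in OMCD by 0.89, 0.89 and 0.70 on the log2 scale, and Upk3a, higher in CCD by 0.67, all under the threshold of 1. With quantile normalization Upk3a was called there (1.05). Without OMCD mouse 2 Fst was called there, and without OMCD mouse 4 Cdh13 was called there and between OMCD and IMCD. Psca was called between the glomerulus and PTS1 without glomerulus mouse 2 or 3, and Lypd2 without DTL1 mouse 1 (log2 difference 1.14, adjusted p = 0.0141 in place of 0.106). With a pseudocount of 0.1, which widens the differences of low genes, 20 of 54 values were called in place of 7, and with a pseudocount of 5 the count was 3. The share of all genes called with these pseudocounts is not given here, so these counts are not read as a result about the 6 genes.

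**Figure D4:**
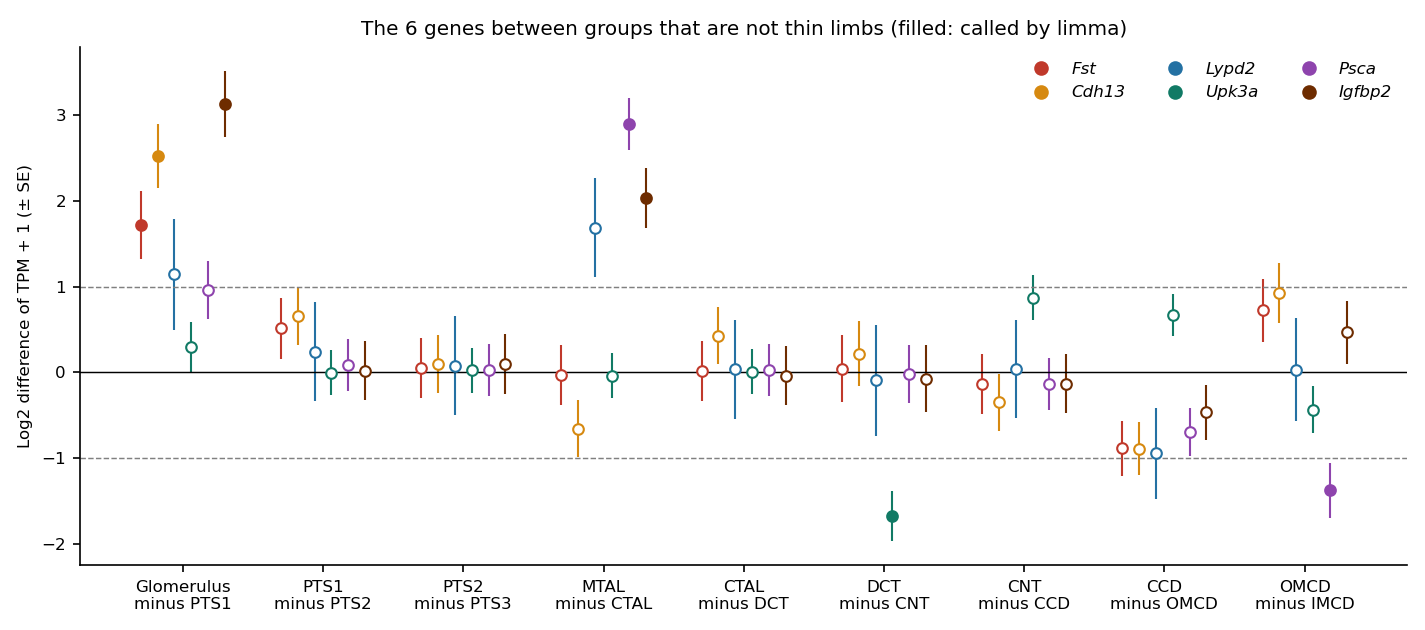
Log2 difference of TPM + 1 (points, bars ± SE from limma) of the 6 genes in 9 contrasts between groups that are not thin limbs, with the threshold of 1 dashed. The 7 filled points are called, 3 of them in the glomerulus against PTS1, 2 in MTAL against CTAL, and Upk3a and Psca once each, below 0.

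The partners and relatives of the 6 genes were followed through 105 listed genes, none of them a member, of which 96 passed the filter. They were compared between the mean of the 4 thin limb groups and the mean of the 11 others. Of the 96, 25 were called higher and 6 lower, against 22.3% and 1.95% of all genes tested, and their median difference was 0.65 beside 0.57 for all genes. The counts depend on scaling: with quantile normalization, which takes the median of all genes to 0.07, they were 15 higher and 13 lower, and all genes split into 1627 higher and 1842 lower in place of 7519 and 660. The rise of all genes went with the number of genes listed per library, and its part in these counts was not tested. In single limbs, 18 listed genes were called higher in ATL (15.2% of all genes were), 49 in DTL1 (46.4%), 31 in DTL2 (15.5%) and 31 in DTL3 (26.7%). With quantile normalization these were 20 in DTL1, 20 in DTL2 and 15 in DTL3 (3281, 1755 and 2164 of all 33793 genes). Median ratio rescaling gave 20 in DTL3 (4933 of all genes). Without rescaling, those called lower were 17 in ATL (5.76% of all genes), 3 in DTL1 (1.91%), 10 in DTL2 (2.24%) and 9 in DTL3 (3.06%). In ATL the calls thus went both ways in nearly equal number, but with ATL mice 4 and 6 only, 29 were called higher there. These are the ATL mice whose libraries listed the most genes, and the share of all genes called with them alone is not given here.

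Of 34 genes of the activin and BMP pathways, in which activins and bone morphogenetic proteins signal through paired receptors and Smad proteins, 7 were called higher and 2 lower, with a median of 0.63. The largest rise was that of Tgfbr3, the co-receptor betaglycan (2.63, SE 0.11, adjusted p = 3.81e-25), highest in DTL3 at 226 ± 35 TPM and called in all 4 limbs, although the glomerulus, at 104 ± 14.9 TPM, was above the other 3. Fstl1, a relative of follistatin, was 1.89 higher (SE 0.14, adjusted p = 9.32e-16) and stood at 313 ± 45.3 TPM in DTL1 against 44.2 ± 7.6 TPM in DTL2, which was below the glomerulus, OMCD and CCD (123, 118 and 71.8 TPM). In ATL it stood at 11.1 ± 7.55 TPM and was not called (-0.32). With DTL1 left out its difference of 0.99 was under the threshold. Inhba, which codes for the activin A subunit that follistatin binds, was 1.62 higher (SE 0.14, adjusted p = 1.72e-13), at 13.7 ± 3.9 TPM in DTL1, 3.71 ± 2.2 TPM in DTL3, 2.79 ± 1.37 TPM in DTL2 and 1.89 ± 2.27 TPM in ATL, where it was not called (0.63). The glomerulus, at 5.63 ± 3.31 TPM, was above the 3 lower limbs. Its call was lost with quantile normalization (0.70) and with a pseudocount of 5 (0.71).

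The other activin subunit, Inhbb, was called higher in ATL alone of the 4 limbs, at 5.05 ± 3.83 TPM against 0.1 to 0.25 TPM in the descending limbs and 4.77 ± 1.23 TPM in CTAL, and not over the thin limbs together (0.24, adjusted p = 0.0801). The activin receptors Acvr2a and Acvr2b had differences of 0.17 and 0.75, and Fstl3, another activin-binding protein, one of 0.78, all under the threshold. In single limbs Acvr2b was called higher in DTL3 (1.20) and ATL (1.39), and Fstl3 in DTL1 (1.08) and DTL3 (1.34). In DTL2, where Fst was at 2786 TPM, Acvr2a stood at 15.6 ± 2.06 TPM and Acvr2b at 19.4 ± 9.9 TPM. Bmp7 and its receptor Bmpr1b were called lower, with differences of -2.57 and -1.95 (SE 0.09 each, adjusted p = 1.37e-27 and 2.44e-22), and in each of the 4 limbs singly. Bmp7 was 2.41 to 6.84 TPM in the thin limb groups and 80.5 ± 6.48 TPM in CCD, with PTS3 and IMCD as low, at 3.04 and 1.68 TPM. Bmpr1b was 0.33 to 0.91 TPM in the thin limb groups and 69.7 ± 12.8 TPM in OMCD, and lower still in PTS1, PTS2, PTS3, MTAL and CTAL, at 0 to 0.042 TPM.

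Of 18 genes around the insulin-like growth factors, 3 were called higher and 3 lower, with a median of 0.39, below that of all genes. Igf1 was 2.48 higher and its receptor Igf1r 1.53 higher (SE 0.13 and 0.12, adjusted p = 8.82e-21 and 2.6e-15). Both were highest in DTL1, Igf1 at 119 ± 31.1 TPM and Igf1r at 44.5 ± 11.6 TPM, and neither was called in ATL, where Igf1 was 8.69 ± 6.01 TPM beside 3375 TPM of Igfbp2. Stromal transcripts (6 genes) summed to 45.4 to 69.2 TPM in DTL1, 12.6 to 21.9 in DTL2 and 10.6 to 19.3 in DTL3. They summed to 2.72 to 75.7 TPM in ATL and 458 to 646 TPM in the glomerulus, where Igf1 was 5.43 ± 1.19 TPM. The part of stromal or endothelial RNA in the DTL1 levels of Igf1, Igf1r and Fstl1 was not tested. Igf2 had a difference of 0.42, under the threshold, and of 1.25, called, with a pseudocount of 0.1, and was called higher in DTL3 (1.12) at 2.35 ± 3.09 TPM. Htra1, a protease that cleaves these binding proteins, was 1.3 higher (SE 0.21, adjusted p = 3.61e-07), at 118 ± 28.5 TPM in DTL2 and 125 ± 36.7 TPM in DTL3 but 871 ± 102 TPM in the glomerulus, 280 TPM in PTS2 and 158 TPM in PTS1. On the linear scale the mean of the thin limb group means, 64.7 TPM, was below that of the other groups, 125 TPM. It was not higher in DTL1 or ATL, where its differences of -0.60 and -0.71 were not called, and its call over the thin limbs was lost with either scaling (0.89 and 0.53) and with a pseudocount of 5 (0.70).

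Of the other binding proteins, Igfbp3, Igfbp5 and Igfbp4 were called lower over the thin limbs, with differences of -1.28, -1.03 and -1.01 (SE 0.22, 0.26 and 0.19, adjusted p = 1.81e-06, 0.000469 and 4.85e-06). In ATL, where Igfbp2 peaked, Igfbp4 was 1.61 ± 1.54 TPM and Igfbp3 1.5 ± 1.56 TPM. The limbs did not move together: Igfbp3 was called lower in DTL3 and ATL and had differences of 0.48 in DTL1 and 0.61 in DTL2, and Igfbp5 had one of 0.14 in DTL3, none of them called. In DTL1, Igfbp4 was called higher instead, at 83 ± 23.3 TPM, and MTAL, CNT, CCD, OMCD and IMCD were as low in Igfbp4 as the other limbs, at 0.14 to 4.39 TPM. Igfbp4 and Igfbp5 lay at the threshold: leaving out any 1 of 13 mice took Igfbp4 above -1 (to -0.91 without ATL mouse 3, and also without ATL mouse 2, DTL1 mouse 5, DTL2 mice 1 or 3, DTL3 mouse 2, PTS3 mice 1 or 2, MTAL mouse 2, CTAL mouse 4, DCT mouse 1, CNT mouse 1 or CCD mouse 4). For Igfbp5 it was 7 mice (-0.86 without ATL mouse 3, and also without ATL mouse 2, DTL1 mouse 5, DTL3 mouse 2, MTAL mouse 2, OMCD mouse 2 or IMCD mouse 3). Other settings also took them above -1: a pseudocount of 5 for Igfbp3 (-0.84) and Igfbp5 (-0.87), DTL1 left out for Igfbp5 (-0.80), a pseudocount of 0.1 for Igfbp4 (-0.96), and ATL mice 4 and 6 only for Igfbp5 (-0.64) and Igfbp4 (-0.81). Igfbp7, a more distant relative, had the highest level of the 18 genes in ATL, 11720 ± 1016 TPM, where it was called higher (2.15), and was named after its values were seen.

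Of 28 genes of the LY6/uPAR family beside Psca and Lypd2, 9 were called higher and 1 lower, with a median of 0.70. None of the 28 reached the level of Psca, but Ly6a and Ly6e exceeded Lypd2 in their highest groups (named after their values were seen). The largest were Lynx1 and Slurp1, the neighbours described above (3.02 and 2.96), and Plaur, the receptor of urokinase (2.86, SE 0.13, adjusted p = 2.54e-23). Plaur, unlike Psca, was low in ATL, at 172 ± 29.8 TPM in DTL1, 174 ± 56.9 TPM in DTL2 and 86.4 ± 26.6 TPM in DTL3 but 8.26 ± 3.09 TPM in ATL, and was highest in IMCD at 238 ± 82 TPM. Lypd6 was called lower (-1.22, SE 0.15, adjusted p = 4.45e-10), and under the threshold with a pseudocount of 5 (-0.90). It was 0.53 to 4.94 TPM in the thin limb groups, 53.9 ± 5.77 TPM in CCD and 0 to 0.75 TPM in PTS1, PTS2, PTS3, MTAL and CTAL. Whether reads were split between copies within this family was not tested for the listed genes.

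Of the 4 uroplakin genes tested beside Upk3a, 2 were called higher over the thin limbs and 0 lower by limma, with a median of 1.03. At an unadjusted p under 0.05 the counts were 4 and 0. Upk3b, a relative of Upk3a, was 5.69 higher (SE 0.10, adjusted p = 4.83e-39), the largest difference among all 96 listed genes, and was called in all 4 limbs. It stood at 548 ± 158 TPM in ATL, 126 ± 24 TPM in DTL3, 67.5 ± 19 TPM in DTL1 and 17.5 ± 8.57 TPM in DTL2, so its highest limb was not that of Upk3a. Upk3bl was 1.55 higher (SE 0.14, adjusted p = 5.32e-13), with 21.9 ± 9.62 TPM in DTL1 and 11.7 ± 4.39 TPM in IMCD, and its call was lost with DTL1 left out (0.78), quantile normalization (0.92) and a pseudocount of 5 (0.73). Upk1a and Upk1b, which pair with the other uroplakins in the bladder, had differences of 0.38 and 0.50, under the threshold (Upk1b 1.33, called, with a pseudocount of 0.1). Both were called higher in DTL1 (1.95 and 1.88), and Upk1a also in ATL (1.13), while its highest group was CTAL at 13.9 ± 1.81 TPM. Upk2 did not pass the filter.

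Of 12 cadherins and adiponectin receptors, 4 were called higher and 0 lower by limma, with a median of 0.67. At an unadjusted p under 0.05 the counts were 10 higher and 1 lower. Cdh6, a cadherin of kidney epithelium, was 3.29 higher (SE 0.14, adjusted p = 6.87e-24), at 83.9 ± 14.7 TPM in DTL3, 49.3 ± 4.81 TPM in DTL1 and 35 ± 1.78 TPM in DTL2 but 3.24 ± 3.54 TPM in ATL. It was called higher in all 3 descending limbs and not in ATL. Cdh4 and Cdh5 were 1.59 and 1.56 higher and lost the call with quantile normalization (0.56 and 0.54) and with a pseudocount of 5 (0.81 and 0.69). Cdh5 is 1 of the 6 endothelial transcripts, and 5 of the 6, Cdh5 included, were highest in the glomerulus. Of the 6 only Plvap, at 2301 TPM in DTL1, 1011 TPM in DTL2 and 730 TPM in DTL3, stood in all 3 descending limbs above each of the 11 other groups (24.5 to 306 TPM). The part of endothelial RNA in the rise of Cdh5 was not tested. Of the adiponectin receptors, Adipor1 was called higher in DTL2 and DTL3, at 333 ± 61.5 and 556 ± 41.9 TPM, but not over the thin limbs together (0.76, and 1.13 and called with DTL1 left out). Adipor2 was called lower in DTL2 and ATL, at 11.5 ± 1.23 and 11 ± 3.85 TPM, with a difference of -0.51 over the thin limbs that was under the threshold, and of -1.06, called, with quantile normalization.

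**Figure D5:**
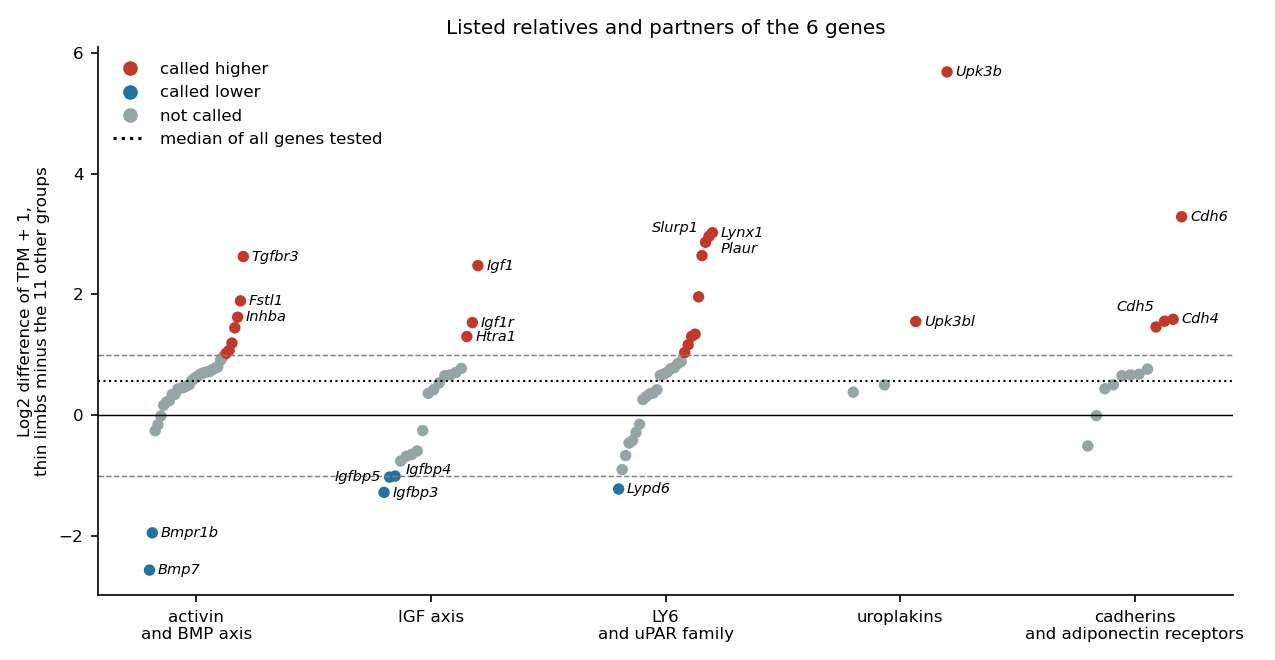
Log2 difference of TPM + 1 between the mean of 4 thin limb groups and the mean of 11 other groups for 96 listed genes, 1 point a gene, by list. The dotted line marks the median of all 33793 genes at 0.57 and the dashed lines the threshold, and Upk3b stands highest at 5.69 while Bmp7 is lowest at -2.57. Igfbp4 and Igfbp5 lie next to the lower threshold.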

How the data were processed

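The authors deposited 1 table of TPM for 54532 genes, with 93 columns that match samples or a group and 14 columns of the authors' means, which were not used. STAR 2.5.4a and RSEM 1.3.0 are named in the submitters' processing notes, with no role, and the genome build is not given in the sources used here. Per the labels' protocols, polyA RNA was amplified with a SMARTer V4 kit and made into libraries with Nextera XT. The column totals ran from 999998.6 to 1000190.3 TPM. The 3 samples of 10X data were not analysed here.

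Values were turned to log2(TPM + 1), and pieces with 1 mouse number and segment were averaged, which gave 53 mice. One PTS2 column matches no title and was kept as a mouse without a number. Genes with at least 1 TPM in at least 3 mice (33793) were fitted over all 15 groups by limma 3.58.1 (R 4.3.3) with a trended variance, and p-values were adjusted by the Benjamini-Hochberg method over these genes. A gene was called at an adjusted p under 0.05 and a log2 difference of at least 1. All tests were two-sided. The p-values measure the spread between numbered mice, and the labels do not say whether a number is 1 animal across segments. Mouse numbers were not used as pairs, since the deviations of same-numbered libraries had a median correlation of 0.00018, beside 0.00037 for other pairs. The scripts were checked on simulated data. Tables and plots used matplotlib 3.10.9, pandas 2.3.3 and numpy 2.4.6 under Python 3.11.15.

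Members and gene lists were chosen with earlier results of these data known. Named listed genes were up to 3 called genes a direction and list with the largest difference, and direct partners of the members. Likeness named the 3 closest genes, passing over Gm, Rik, mt-, ribosomal and pseudogene names, although n-R5s195, a ribosomal RNA gene, was not passed over. Alternatives covered the pseudocount, the filter, scaling, averaging of pieces, the replicate block and DTL1 left out. They also covered ATL mice 2 and 3 only, ATL mice 4 and 6 only, and each mouse left out.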

Additional observations from a re-analysis of the deposited data

Results flagged for a closer look

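Of 81 tests of a group of 4 or 5 mice, 8 had a mouse far from the others, and chance gives about 1 in 20. Igfbp2 in ATL mouse 3 was 6468 TPM, where the other 3 mice were 1979 to 2608 TPM, a gap of 0.86 of the whole range. The other 7 were listed genes. Fstl1 was low in mouse 1 of CTAL (14.5 TPM, others 23.2 to 26.1 TPM) and of CCD (52.9 TPM, others 74.7 to 77.5 TPM), and Lynx1 was high in CTAL mouse 1 (51.6 TPM, others 33.4 to 38.1 TPM). Igfbp3 was high in CCD mouse 5 (35.2 TPM, others 15.2 to 19.6 TPM). In OMCD, Igf1r was high in mouse 1 (19.985 TPM, others 14.4 to 14.7 TPM), and in mouse 2 both Igfbp5 (36.3 TPM, others 5.81 to 10.5 TPM) and Plaur (75.1 TPM, others 34.1 to 36.7 TPM) were high.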

How the results depend on the processing

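Of 2793 single values recomputed over 44 results, 2743 kept their call or stayed uncalled, 46 lost the call and 4 gained one. Of the values of results called in the main fit, 0 changed direction. For values that stayed uncalled the direction was not compared. Of 641 counts and levels over 22 results, 29 moved, and the cause was not tested. With a pseudocount of 0.1 the calls of the 6 genes outside the thin limbs went from 7 to 20, and the listed genes called higher to 51 over the thin limbs, 51 in DTL3 and 28 in ATL. With a pseudocount of 5 these were 3 calls of the 6 genes, 14 listed genes higher and 3 lower over the thin limbs, and 26, 17, 18 and 11 higher in DTL1, DTL2, DTL3 and ATL. Quantile normalization gave 15 higher and 13 lower over the thin limbs and 20, 20 and 15 higher in DTL1, DTL2 and DTL3, and median ratio rescaling gave 20 in DTL3. Leaving out DTL1 gave 10 lower, and ATL mice 4 and 6 only gave 29 higher in ATL. Using ATL mice 2 and 3 only moved none of the counts of listed genes. The shares of all genes for the pseudocounts, DTL1 left out and ATL mice 4 and 6 only are not given here. The calls summed over single limbs, 129 in all, were 72 with a pseudocount of 5, 70 with quantile normalization and 80 with DTL1 left out.

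The Fst margin of DTL2 over DTL1 was 10.22 with quantile normalization and 7.95 with a pseudocount of 5, that of Cdh13 5.85 with quantile normalization, that of Upk3a in DTL3 over CNT 3.08 with a pseudocount of 5, and that of Igfbp2 in ATL over the glomerulus 9.51 with quantile normalization. The mean of Cdh13 in DTL2 was 253 with median ratio rescaling, and that of Lypd2 in DTL2 was 6466 with quantile normalization.

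With each mouse left out in turn, calls of the 6 genes ranged from 7 to 9, and listed genes from 23 to 27 higher and 4 to 6 lower over the thin limbs, and higher from 46 to 50 in DTL1, 28 to 31 in DTL2, 31 to 33 in DTL3 and 15 to 22 in ATL, 126 to 133 in all. Means ranged from 2559 to 3113 TPM (Fst), 304 to 318 (Cdh13), 4998 to 6476 (Lypd2, ATL), 4332 to 5582 (Lypd2, DTL2), 44.6 to 76.4 (Upk3a), 12699 to 15088 (Psca) and 2344 to 3840 (Igfbp2). Margins ranged from 8.31 to 8.97 (Fst), 4.29 to 4.83 (Cdh13), -0.06 to 0.42 (Lypd2, ATL over DTL2), 6.31 to 7.76 (Lypd2, ATL over DTL3), 3.75 to 4.51 (Upk3a), 8.87 to 9.34 (Psca) and 7.94 to 8.64 (Igfbp2).

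With mouse number as a replicate block (52 mice), 7 values of the 6 genes were called, 24 listed genes higher and 6 lower over the thin limbs, and 49, 30, 32 and 15 higher in DTL1, DTL2, DTL3 and ATL, 126 in all. The numbers were not taken as pairs: the median correlation of deviations was 0.00018 over 290 same-numbered pairs and 0.00037 over 1016 others. The correlation was over 0.1 in 19 of the same-numbered pairs and in 32 of the others, so some shared deviation is not excluded. TPM keep no depth, so the precision of low values, on which the results outside the thin limbs rest, is unknown.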
